A study of Mus musculus with 12 samples.

Results

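The genes described here are 33 mouse genes of DNA crosslink repair, chosen by name from a list of Fanconi anaemia genes and of their partners in recombination, crosslink cutting, lesion bypass and checkpoint signalling. All 33 were found among the 21004 genes of the deposited table, and all 33 passed the filter on low values. RNA was sequenced from spleens of 8-week-old ICR mice, an outbred strain, in 4 groups of 3 libraries: busulfan with L.J. at 10 mg/kg, busulfan alone, L.J. alone at 10 mg/kg, and control. What L.J. stands for, the dose of busulfan and the time from treatment to collection are not in the labels. The title of the series concerns L.J. as a remedy for busulfan damage in this organ, and its design text names FMT, an abbreviation left unexplained. Nothing in the labels ties each library to its own mouse, so p-values measure the spread between these libraries, which may be technical.

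Busulfan is an alkylating drug that joins DNA bases to each other, within a strand and between strands, and it empties the bone marrow of dividing cells. A crosslink between strands blocks the replication fork. The Fanconi core complex then attaches ubiquitin to the pair Fancd2 and Fanci, nucleases on the scaffold Slx4 cut the crosslink loose from 1 strand, bypass polymerases copy across it, and homologous recombination with Brca1, Brca2 and their partners mends the break. Inherited loss of many of these genes in people causes Fanconi anaemia, in which blood cell production fails and cells are unusually sensitive to crosslinking drugs. Much of the pathway is known to be regulated on the protein, by ubiquitin and phosphate, and several of its genes are transcribed mainly in cells that are copying their DNA.

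Promoters of 30 of the 33 genes were found in the RefSeq promoter table (assembly GRCm38.p6), each reaching from 250 bases before to 50 bases after the start of the transcript that the table uses. Those of Xrcc2, Fancd2 and Rev3l were not found there. A motif of the E2F type (TTGGCGC or TTCGCGC, on either strand), the sequence class read by the factors that switch on S phase genes, was present in 7 of the 30, which is 23.3%. It was present in 7.87% of the 10466 tested genes with a promoter in the table. The 7 genes were Brca1, Brip1, Rad51c, Ercc1, Ube2t, Fancm and Fancf. The CCAAT box (CCAAT on either strand), the sequence read by the factor NF-Y, was present in 18 of 30 (60%) against 43.3% of the tested genes. The letters GCGCCAA and CCAAT can overlap, and did so in 2 genes, Ube2t and Fancf. TTTGAA, an element known from genes of late cell cycle, was present in 1 of 30 (3.33%), namely Eme1, against 15.1%. A match is a run of letters and not a shown binding site. The promoters of Brca1, Brip1, Blm and Slx4 are printed 5′ to 3′ on the minus strand, the strand of all 4 genes. Brca1, Blm and Brip1 are examples of genes that varied with the cycling genes from library to library. Slx4 was the gene with the smallest p between the groups given busulfan. Fanci, Chek2, Chek1 and Brca2 had smaller p values than Brip1 for the relation to cycling genes and are not printed. Of these, Fanci, Chek1 and Brca2 held none of the motifs, and Chek2 held a CCAAT box. Capitals mark the E2F type motif and the CCAAT box. They lie at chr11:101551906-101552205 (Brca1), chr11:86201144-86201443 (Brip1), chr7:80534949-80535248 (Blm) and chr16:4001629-4001928 (Slx4). The start that the table uses for Slx4 lies inside the gene span given by RefSeq, so that its stretch is not the one before the outermost start. The stretches of Ercc1 and Fancm, 2 of the 7 genes with the E2F type motif, also lie wholly inside the gene span. So do those of Fancc, Brca2, Ercc4 and Rev1. Rad51c and Mgmt had 2 stretches each, of which 1 lies wholly inside the gene span. Both stretches of Rad51c, a further gene of the 7, held the E2F type motif.
Brca1: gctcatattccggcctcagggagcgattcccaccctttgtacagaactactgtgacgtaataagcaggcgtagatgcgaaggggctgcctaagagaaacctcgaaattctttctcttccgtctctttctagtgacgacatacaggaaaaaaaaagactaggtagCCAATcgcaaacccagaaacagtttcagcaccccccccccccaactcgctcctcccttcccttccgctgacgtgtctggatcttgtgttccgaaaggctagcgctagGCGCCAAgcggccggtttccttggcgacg
Brip1: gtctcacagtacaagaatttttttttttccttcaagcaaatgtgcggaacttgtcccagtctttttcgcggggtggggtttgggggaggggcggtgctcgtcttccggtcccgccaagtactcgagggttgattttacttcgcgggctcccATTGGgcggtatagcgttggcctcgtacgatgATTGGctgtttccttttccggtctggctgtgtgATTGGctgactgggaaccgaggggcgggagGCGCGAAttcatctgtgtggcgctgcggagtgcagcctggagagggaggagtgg
Blm: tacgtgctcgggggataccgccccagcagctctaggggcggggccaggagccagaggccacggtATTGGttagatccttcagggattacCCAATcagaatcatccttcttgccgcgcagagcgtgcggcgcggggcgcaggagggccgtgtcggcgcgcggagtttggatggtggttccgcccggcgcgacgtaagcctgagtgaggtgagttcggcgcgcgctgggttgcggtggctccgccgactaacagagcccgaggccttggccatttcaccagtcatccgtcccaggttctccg
Slx4: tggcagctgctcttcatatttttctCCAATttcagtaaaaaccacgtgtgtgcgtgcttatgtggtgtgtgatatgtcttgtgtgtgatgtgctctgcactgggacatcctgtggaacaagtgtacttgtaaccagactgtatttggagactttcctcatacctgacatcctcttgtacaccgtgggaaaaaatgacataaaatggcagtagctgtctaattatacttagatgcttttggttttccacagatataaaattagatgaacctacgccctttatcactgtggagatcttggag

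All 33 genes were expressed at modest levels in every group. Levels are in FPKM, fragments scaled to transcript length and to the mapped total, as the authors deposited them, so that genes of different length can be compared. The mean over 12 libraries had a median of 6.15 FPKM over the 33 genes, with 13 genes between 1 and 5 FPKM, 14 between 5 and 10, and 6 above 10. The most abundant was Rpa1 (52.8 FPKM), the large subunit of the protein that coats single-stranded DNA, followed by its partner Rpa2 (16.8 FPKM) and the core complex subunit Fancg (14.9 FPKM). Fancl, the ubiquitin ligase of the core complex, averaged 11.8 FPKM, the checkpoint kinase Chek2 10.3 FPKM and the helicase Blm 10.2 FPKM. The lowest were Fancc (2.17 FPKM) and Fancf (2.21 FPKM), 2 further subunits of the core complex. Subunits of that single complex thus differed more in level than a gene did between libraries. Per gene, the highest library was a median of 1.76 times the lowest, and more than 2 times in 8 genes. Mgmt, which removes alkyl groups from guanine directly, had the widest range, 1.22 to 6.59 FPKM, a ratio of 5.40. The checkpoint kinase Atr and Rpa1 had the narrowest, with ratios of 1.29 and 1.31. Several of the genes share exon bases with a gene on the other strand, and whether the authors counted by strand is not given in the sources used here. The longest such overlaps with protein-coding genes are of Rev1 with Eif5b (1643 of 6168 exon bases), Fanci with Polg (921 of 5774) and Fanca with Zfp276 (920 of 8761), and that of Mus81 with Efemp2 is 173 of 3567.

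**Figure D1:**
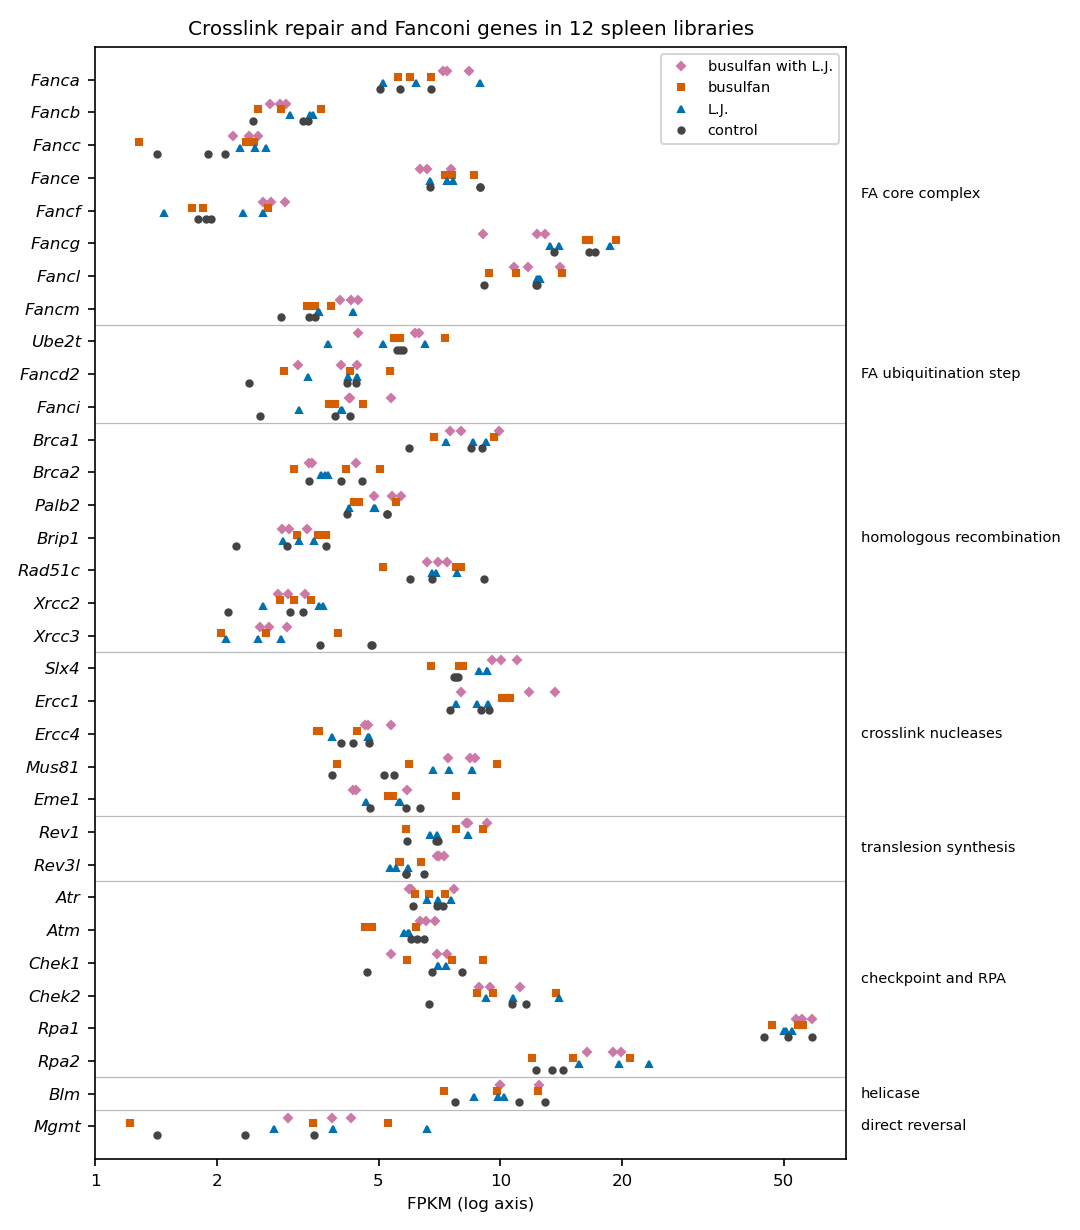
FPKM of each of the 33 genes (log axis) in the 12 libraries, 1 point per library, with colours and shapes for the 4 groups and genes ordered by role. For most genes the points of the 4 groups lie over one another; Slx4, Fancg and Xrcc3 are among those in which 1 group stands to a side.

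The libraries differed in other ways that touch these genes. The spleen markers Cd79a (649 to 1884 FPKM), Cd3e (26.0 to 104 FPKM) and Spic (33.65 to 65.2 FPKM) were present in all 12. Pancreatic acinar transcripts, from the organ beside the spleen, summed to between 14.7 and 208 FPKM over 22 genes with busulfan and L.J., 216 to 58167 with busulfan alone, 97.3 to 6539 with L.J. alone and 8.72 to 9.78 in controls, where 12 to 14 of the 22 stood at 0. In the other groups 2 to 8 stood at 0 with busulfan and L.J., 0 to 2 with busulfan alone and 0 to 2 with L.J. alone. They took 10.1% of all FPKM in busulfan library 1, 1.18% in L.J. library 3 and 0.922% in busulfan library 2. Neutrophil transcripts summed to between 399 and 1104 FPKM over 11 genes with busulfan and L.J., 1369 to 29127 with busulfan alone, 898 to 1719 with L.J. alone and 554 to 889 in controls. Erythroid transcripts summed to between 84721 and 157228 FPKM over 17 genes with busulfan and L.J. and 29773 to 70708 with busulfan alone. They summed to 72116 to 98222 with L.J. alone and 58581 to 101649 in controls. For busulfan with L.J. against busulfan, 16 of the 17 were higher, with a median difference of 0.80, and 0 passed the adjusted threshold of limma. B cell markers were lower with busulfan than in controls for 12 of 12 genes, with a median difference of -0.69 on the log2(FPKM + 1) scale, and 0 passed the adjusted threshold of limma while 12 had an unadjusted p under 0.05. Within groups, the coefficient of variation of the 33 genes had a median of 8.21% with busulfan and L.J., 18.3% with busulfan alone, 10.6% with L.J. alone and 14.7% in controls. Control library 3 held the lowest value of 13 of the 33 genes and busulfan library 2 the highest of 8. Fits without the 3 libraries richest in acinar transcripts, or with the acinar score as a covariate, are given beside several of the results that they moved. The former leave out busulfan libraries 1 and 2 and L.J. library 3, so that busulfan library 3 is alone in its group. The acinar score, the mean log2(FPKM + 1) of these transcripts, was 0.22 to 0.26 in controls. It was 0.33 to 2.83 with busulfan and L.J., 2.50 to 9.82 with busulfan alone and 1.93 to 7.19 with L.J. alone. No treated group overlapped controls, so acinar content and treatment cannot be told apart in comparisons with control. Kidney tubule transcripts (9 genes) summed to 23.6 to 49.75 FPKM in controls and 0.85 to 8.91 in the other groups. Hepatocyte transcripts (14 genes) summed to 93.8 to 202 FPKM in controls and 43 to 83.8 in the other groups. The part of the neutrophil, B cell, erythroid, kidney and hepatocyte transcripts was not tested. In whole spleen, fewer cells of a type and less RNA per cell cannot be told apart.

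None of the 33 genes passed an adjusted p of 0.05 in any of 6 comparisons, by limma on log2(FPKM + 1) with Benjamini-Hochberg adjustment over 13138 genes. The smallest adjusted p belonged to the nuclease scaffold Slx4 (0.0594), which was higher with busulfan and L.J. than with busulfan alone, and the next to Fancg (0.0772), which was lower. Xrcc3, a recombination gene, averaged lower in each treated group than in controls, without passing the test. Each difference is the first group named less the second on the log2(FPKM + 1) scale, which understates the change of genes with low values.

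Busulfan alone against control separated few of these genes. In that comparison 0 of the 33 passed, where 0.0304% of all genes tested did, and 1 had an unadjusted p under 0.05 against 12.2% of all genes. The difference was above 0 for 22 of 33, with a median of 0.09 beside -0.03 for all genes tested. That median rests on control library 3: without it the median was -0.01. Without the 3 libraries richest in acinar transcripts, which leaves busulfan library 3 alone in its group, the median was -0.02. The 95% interval lay within 1 log2 unit of 0 for 32 of 33 genes, the exception being Mgmt (up to 1.07), and within 0.5 for 23. Ercc1 was the only gene whose groups did not overlap, against 12.9% of all genes tested.

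The smallest adjusted p values were in the comparison of busulfan with L.J. against busulfan alone. In it 0 of 33 passed, where 1.66% of all genes did, and 5 had an unadjusted p under 0.05 (Slx4, Fancg, Atm, Rev3l and Ercc4) against 23.2% of all genes, so that the members' share was not above the background. The groups did not overlap for 7 genes, against 23.1% of all genes: Slx4, Atm, Rev3l, Ercc4, Fancm and Fanca were higher and Fancg was lower. The median difference was 0.10 over the 33 genes and 0.05 over all genes tested. The interval lay within 1 log2 unit of 0 for 32 of 33 and within 0.5 for 18.

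L.J. alone against control gave 0 of 33 past the threshold, where 0.0304% of all genes passed, and 4 with an unadjusted p under 0.05 (Xrcc3, Rpa2, Mus81 and Slx4) against 8.91% of all genes. The groups did not overlap for 8 genes, against 18.8% of all genes. The median difference was 0.09, beside 0.02 for all genes tested, and -0.01 without control library 3. Busulfan with L.J. against control gave 0 of 33 where 0.0609% of all genes passed. In it 9 had an unadjusted p under 0.05 against 19.0% of all genes, and 11 did not overlap against 35.1%. Its median of 0.10, beside 0.04 for all genes, was -0.0009 without control library 3. These comparisons and that of busulfan alone share the same 3 control libraries. Busulfan with L.J. against L.J. alone gave 0 of 33 where 0.0% of all genes passed, 2 with an unadjusted p under 0.05 against 5.61%, and 7 without overlap against 15.7%. The interaction, the effect of L.J. with busulfan less its effect without, gave 0 of 33 where 0.0% of all genes passed and 4 with an unadjusted p under 0.05 (Rev3l, Atm, Xrcc3 and Fancg) against 11.5% of all genes. None of these shares is read as particular to the list.

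**Figure D2:**
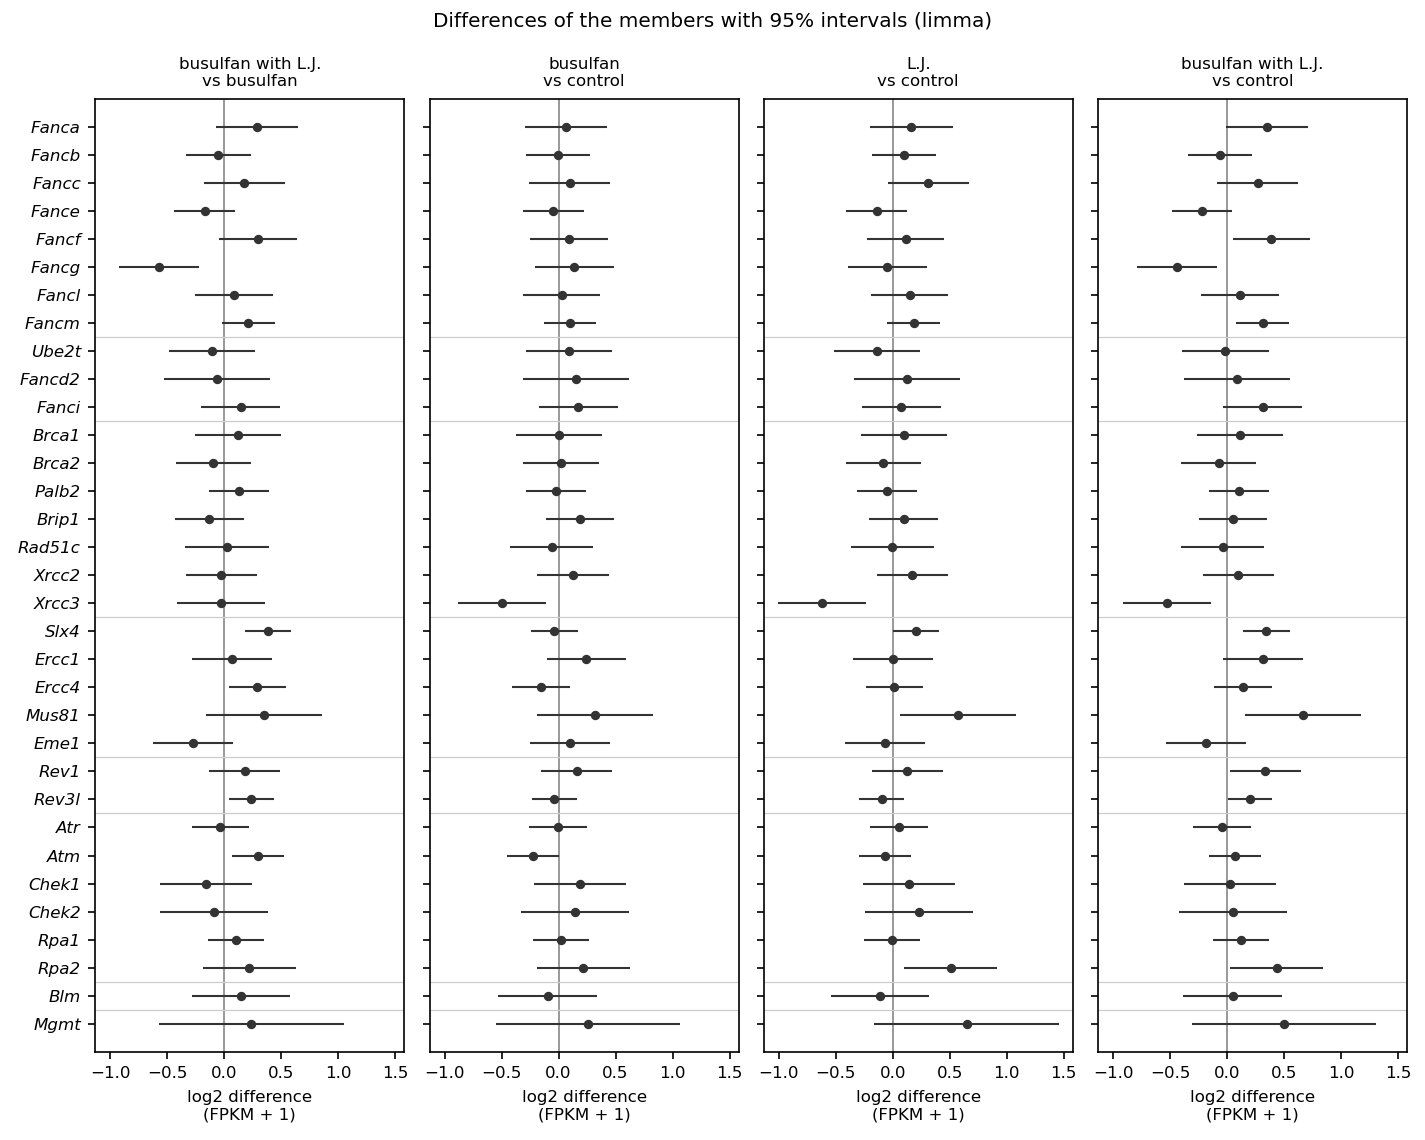
Difference of each gene on the log2(FPKM + 1) scale in 4 comparisons, with its 95% interval from limma as a line through the point. Most intervals cross 0. Among those that do not are those of Slx4 and Fancg in the first panel and of Xrcc3 in the other 3, although none passed the adjusted threshold.

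Among the core complex genes, Fancg (gene 60534, chr4:43002337-43010567, minus strand of GRCm38) had the smallest p. Fancg had 12.3, 9.06 and 12.9 FPKM in spleens given busulfan with L.J., 16.3, 19.2 and 16.5 with busulfan alone, 18.6, 13.2 and 13.9 with L.J. alone and 17.1, 13.5 and 16.5 in controls. All 3 libraries given both agents lay below the other 9. The mean was 11.4 ± 2.06 FPKM with busulfan and L.J. and 17.4 ± 1.65 FPKM with busulfan alone (SD, n = 3 each), a difference of -0.57 (SE 0.16, 95% interval -0.92 to -0.23, limma adjusted p = 0.0772). Against L.J. alone, which averaged 15.3 ± 2.94 FPKM, the difference was -0.39 (adjusted p = 0.869), or -0.24 without library 2 of both agents and -0.25 without L.J. library 1, and against controls it was -0.44 (adjusted p = 0.209). Its interaction term was -0.53 (adjusted p = 0.403).

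Fancm, the translocase that brings the core complex to a blocked fork, stood highest with both agents. Fancm had 4.28, 4.46 and 4.02 FPKM in spleens given busulfan with L.J., 3.48, 3.33 and 3.81 with busulfan alone, 3.55, 3.57 and 4.32 with L.J. alone and 3.36, 3.49 and 2.87 in controls. The 3 libraries given both agents lay above all busulfan and all control libraries, but 1 L.J. library lay among them. Busulfan with L.J. averaged 4.25 ± 0.22 FPKM against 3.24 ± 0.33 FPKM in controls, a difference of 0.31 (SE 0.11, limma adjusted p = 0.193). Fancf is an adaptor of the complex. Fancf had 2.60, 2.71 and 2.94 FPKM in spleens given busulfan with L.J., 2.66, 1.84 and 1.73 with busulfan alone, 1.48, 2.60 and 2.32 with L.J. alone and 1.93, 1.79 and 1.87 in controls. The group given both agents overlapped with busulfan alone through busulfan library 1 and lay above all controls, with a difference from control of 0.39 (adjusted p = 0.232). Fancc had 2.52, 2.39 and 2.19 FPKM in spleens given busulfan with L.J., 2.46, 2.36 and 1.28 with busulfan alone, 2.48, 2.28 and 2.63 with L.J. alone and 2.09, 1.90 and 1.42 in controls. Both groups given L.J. lay above every control library for Fancc, a further subunit, while the busulfan libraries spread widely. Its difference of L.J. alone from control was 0.31 (limma adjusted p = 0.554). With the acinar score as a covariate it was 0.07, but that score did not overlap between these groups. Fanca, Fancb, Fancc, Fance and Fancl had no unadjusted p under 0.05 in any comparison. Fanca, the scaffold to which Fancg binds, averaged 7.67 ± 0.62 FPKM with busulfan and L.J. against 6.11 ± 0.59 FPKM with busulfan alone, without overlap.

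Of the step that the core complex carries out, Fancd2, Fanci and the conjugating enzyme Ube2t, no gene had an unadjusted p under 0.05 in any comparison. Fancd2 had 4.04, 4.42 and 3.17 FPKM with busulfan and L.J., 4.24, 5.34 and 2.92 with busulfan alone, 3.35, 4.43 and 4.20 with L.J. alone and 4.17, 4.40 and 2.39 in controls. The 4 groups overlapped. Fanci had 4.25, 5.38 and 4.23 FPKM in spleens given busulfan with L.J., 3.78, 4.57 and 3.90 with busulfan alone, 3.18, 4.07 and 4.03 with L.J. alone and 3.91, 4.24 and 2.55 in controls. Control library 3 was the lowest for both.

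Among the 7 recombination genes, Xrcc3 (gene 74335, chr12:111803192-111813893, minus strand) had the smallest p. Xrcc3 had 2.55, 2.69 and 2.97 FPKM in spleens given busulfan with L.J., 2.04, 3.97 and 2.64 with busulfan alone, 2.88, 2.52 and 2.10 with L.J. alone and 3.58, 4.80 and 4.83 in controls. Controls were the highest group, and only busulfan library 2 reached into their range. The mean was 2.88 ± 0.99 FPKM with busulfan alone against 4.40 ± 0.71 FPKM in controls (SD, n = 3 each), a difference of -0.50 (SE 0.18, 95% interval -0.88 to -0.11, limma adjusted p = 0.303). With library weights that difference was -0.18 (limma adjusted p = 0.670). With L.J. alone it averaged 2.50 ± 0.39 FPKM, a difference from control of -0.62 (limma adjusted p = 0.548), and with both agents 2.74 ± 0.21 FPKM, a difference of -0.52 (limma adjusted p = 0.191). Its interaction term was 0.60 (limma adjusted p = 0.392), or 0.35 with the acinar score as a covariate. The values of the 3 treated groups overlap one another. Brip1, the helicase partner of Brca1, was the gene with the fourth smallest p for busulfan against control. Brip1 had 3.0, 3.33 and 2.89 FPKM in spleens given busulfan with L.J., 3.54, 3.71 and 3.14 with busulfan alone, 3.19, 2.90 and 3.47 with L.J. alone and 2.97, 3.70 and 2.22 in controls. Its groups overlapped in every comparison. The difference of busulfan from control for Brip1 was 0.19 (limma adjusted p = 0.579). With the acinar score as a covariate it was 0.07, but that score did not overlap between these groups. Brca1, Brca2, Palb2, Rad51c and Xrcc2 had no unadjusted p under 0.05 in any comparison.

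Among the nucleases and their scaffold, Slx4 (gene 52864, chr16:3979105-4003829, minus strand) had groups in steps. Slx4 holds Mus81 with Eme1, and Ercc4 with Ercc1, at the crosslink. Slx4 had 10.01, 9.51 and 11.01 FPKM in spleens given busulfan with L.J., 7.92, 6.75 and 8.08 with busulfan alone, 8.87, 9.25 and 9.24 with L.J. alone and 7.78, 7.86 and 7.70 in controls. The libraries given both agents were the highest, those with L.J. alone came next, and busulfan and control libraries overlapped at the bottom. Busulfan with L.J. averaged 10.2 ± 0.76 FPKM against 7.58 ± 0.73 FPKM with busulfan alone (SD, n = 3 each), a difference of 0.38 (SE 0.09, 95% interval 0.18 to 0.58, limma adjusted p = 0.0594). L.J. alone averaged 9.12 ± 0.22 FPKM against 7.78 ± 0.08 FPKM in controls, a difference of 0.20 (limma adjusted p = 0.548). Leaving out busulfan library 1 or busulfan library 3 brought the adjusted p of Slx4 under the threshold, to 0.0455 and 0.0255, with differences of 0.41 and 0.42. The difference was 0.30 without the 3 libraries richest in acinar transcripts, which leaves busulfan library 3 alone in its group. It was 0.41 without the libraries over 1% acinar (limma adjusted p = 0.0605) and 0.40 with the acinar score as a covariate (limma adjusted p = 0.221). The effect of L.J. with busulfan less that without was 0.18 (95% interval -0.11 to 0.46, limma adjusted p = 0.625). The stretch printed above for Slx4 holds 1 CCAAT box and no E2F type motif, and it lies inside the gene, downstream of the annotated 5′ end.

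Ercc4, the catalytic subunit of the nuclease that cuts beside the crosslink, was lowest with busulfan alone. Ercc4 had 4.71, 4.64 and 5.37 FPKM in spleens given busulfan with L.J., 4.43, 3.56 and 3.53 with busulfan alone, 3.84, 4.73 and 4.71 with L.J. alone and 4.05, 4.32 and 4.73 in controls. The 3 libraries given both agents lay above the 3 with busulfan alone, and both L.J. alone and control overlapped with each. The difference of busulfan with L.J. from busulfan was 0.29 (SE 0.12, limma adjusted p = 0.171). Ercc1 had 11.8, 7.98 and 13.6 FPKM in spleens given busulfan with L.J., 10.4, 10.6 and 10.1 with busulfan alone, 9.29, 7.77 and 8.77 with L.J. alone and 9.39, 7.50 and 8.93 in controls. All 3 busulfan libraries of Ercc1, the partner of Ercc4, lay above all controls, while the libraries given both agents spread on both sides of the busulfan ones. The mean was 10.3 ± 0.24 FPKM with busulfan alone against 8.61 ± 0.99 FPKM in controls, a difference of 0.24 (limma adjusted p = 0.541). With the acinar score as a covariate it was 0.07, but that score did not overlap between these groups. Mus81, the catalytic subunit of the other nuclease, spread most with busulfan alone. Mus81 had 8.67, 7.44 and 8.42 FPKM in spleens given busulfan with L.J., 9.82, 3.94 and 5.95 with busulfan alone, 6.81, 8.51 and 7.48 with L.J. alone and 5.45, 3.84 and 5.17 in controls. Both groups given L.J. lay above all controls, and the busulfan libraries lay on both sides. The difference from control was 0.67 with both agents (SE 0.23, limma adjusted p = 0.198), 0.57 with L.J. alone (limma adjusted p = 0.548) and 0.32 with busulfan alone (limma adjusted p = 0.579). That last difference was 0.02 without busulfan library 1 and turned to -0.06 with library weights, and the first had an adjusted p of 0.0345 in a limma fit on only the 2 groups compared. Eme1, its partner, averaged 4.87 ± 0.88 FPKM with both agents and 6.16 ± 1.40 FPKM with busulfan alone, with overlap.

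Of the bypass genes, Rev3l, the catalytic subunit of polymerase zeta (gene 19714, chr10:39731561-39875211, plus strand), was highest with both agents. Rev3l had 7.26, 6.98 and 7.04 FPKM in spleens given busulfan with L.J., 5.65, 5.61 and 6.36 with busulfan alone, 5.91, 5.33 and 5.51 with L.J. alone and 5.84, 6.46 and 5.84 in controls. The 3 libraries given both agents lay above the other 9. The mean was 7.09 ± 0.15 FPKM against 5.87 ± 0.42 FPKM with busulfan alone, a difference of 0.24 (SE 0.09, limma adjusted p = 0.152). Without the 3 libraries richest in acinar transcripts, which leaves busulfan library 3 alone in its group, the difference was 0.14. Over all 12 libraries it was 0.30 against L.J. alone, which averaged 5.58 ± 0.30 FPKM (limma adjusted p = 0.867). The interaction term was 0.34 (limma adjusted p = 0.346). Rev1, which carries polymerase zeta to the lesion, averaged 8.59 ± 0.59 FPKM with both agents and 6.61 ± 0.64 FPKM in controls, without overlap, a difference of 0.33 (limma adjusted p = 0.244).

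Of the checkpoint genes, Atm, the kinase that answers to double-strand breaks (gene 11920, chr9:53437122-53536828, minus strand), was lowest in a pair of busulfan libraries. Atm had 6.90, 6.33 and 6.55 FPKM in spleens given busulfan with L.J., 4.63, 4.83 and 6.17 with busulfan alone, 5.79, 5.95 and 5.91 with L.J. alone and 6.21, 6.0 and 6.46 in controls. Busulfan libraries 1 and 2 lay below the other 10, and these are 2 of the 3 libraries richest in acinar transcripts. The mean was 6.59 ± 0.29 FPKM with busulfan and L.J. against 5.21 ± 0.84 FPKM with busulfan alone, a difference of 0.30 (SE 0.10, limma adjusted p = 0.127). It was 0.08 without the 3 libraries richest in acinar transcripts, which leaves busulfan library 3 alone in its group. It was 0.23 without the libraries over 1% acinar (limma adjusted p = 0.225) and 0.15 with the acinar score as a covariate (limma adjusted p = 0.575). Without busulfan library 3 it was 0.41 (limma adjusted p = 0.0214). Against control, the difference of busulfan alone was -0.23 (limma adjusted p = 0.410), or -0.01 without the 3 libraries richest in acinar transcripts. Rpa2 averaged higher in the groups given L.J. than in controls. Rpa2 had 19.00, 19.8 and 16.4 FPKM in spleens given busulfan with L.J., 20.9, 15.1 and 11.99 with busulfan alone, 15.6, 23.3 and 19.7 with L.J. alone and 14.2, 13.4 and 12.3 in controls. Both groups given L.J. lay above all controls, and busulfan alone overlapped with every other group. The mean was 19.5 ± 3.85 FPKM with L.J. alone against 13.3 ± 0.99 FPKM in controls, a difference of 0.51 (SE 0.19, limma adjusted p = 0.548). That difference was 0.33 with the acinar score as a covariate, but that score did not overlap between these groups. For Rpa2 the difference of both agents from control was 0.44 (limma adjusted p = 0.245). Its partner Rpa1 differed by at most 0.13 in size between any pair of groups compared. Atr, Chek1, Chek2, Rpa1, Blm and Mgmt had no unadjusted p under 0.05 in any comparison. Mgmt averaged 4.40 ± 1.97 FPKM with L.J. alone and 2.41 ± 1.03 FPKM in controls, a difference of 0.65 with an interval from -0.16 to 1.46.

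**Figure D3:**
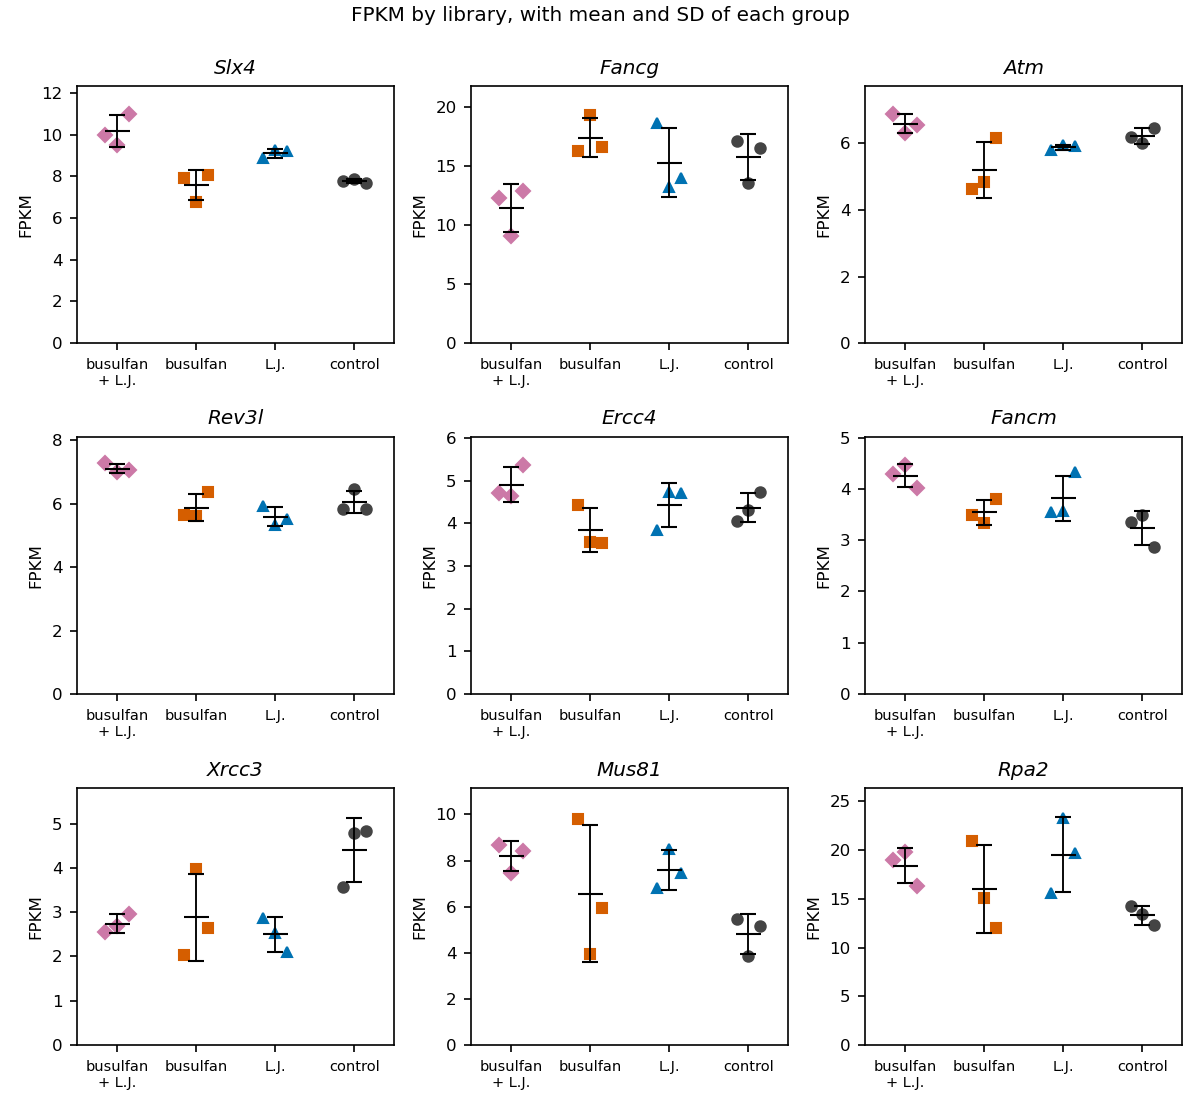
FPKM of 9 genes in each library (points), with the mean and SD of each group (n = 3) as bars; axes start at 0. Slx4 and Rev3l are highest and Fancg lowest with both agents, Xrcc3 is highest in controls, and the libraries with busulfan alone spread most for Mus81 and Rpa2.

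Transcript length moved with the differences across all genes. The 12913 tested genes with a transcript in GENCODE M21 were put into 4 equal classes by the length of their longest transcript, with limits at 2100, 3276 and 4693 bases. In the comparison of busulfan with L.J. against busulfan, the median difference was -0.02 in the shortest class and 0.10 in the longest, and for busulfan against control it was 0.06 and -0.09. The median of the longest class less that of the shortest, per library, was -0.22 in busulfan library 1 and lay between -0.09 and 0.11 in the other 11. Slx4 (5706 bases), Atm (9819), Rev3l (10789), Fancm (7816) and Ercc4 (5130) are all in the longest class, which holds 12 of the 33 genes. Of those 12, 8 were higher with busulfan and L.J. than with busulfan alone, with a median of 0.13. Brca2 (10724 bases) and Atr (8102 bases) are as long and were not. In the shortest class 4 of 4 of these genes were higher, with a median of 0.26. Between 2100 and 3276 bases 3 of 11 were higher (median -0.05), and between 3276 and 4693 bases 5 of 6 (median 0.14). The part of length in these differences was not tested.

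The other genes of the pathway, a list of 57 of which 56 were tested, were described in the same way. The 56 are 10 partners of the Fanconi complex, 19 recombination genes, 12 nucleases and bypass polymerases and 15 checkpoint genes. By limma 0 of 56 passed in any of the 6 comparisons. The number with an unadjusted p under 0.05 was 14 for busulfan with L.J. against busulfan, 3 for busulfan against control, 2 for L.J. against control, 12 for both agents against control, 4 for both agents against L.J. alone and 6 for the interaction. As a share these were 25% for busulfan with L.J. against busulfan, where 23.2% of all genes reached it, and 21.4% for both agents against control, where 19.0% did, so the list stood near the background. The median difference was 0.02 for busulfan with L.J. against busulfan (35 of 56 above 0), 0.07 for busulfan against control (34 above 0) and 0.08 for L.J. against control (35 above 0). Cenpx and Cenps, the histone-fold pair that binds Fancm, had 49.7 ± 7.38 and 13.1 ± 1.34 FPKM with busulfan and L.J. against 90.1 ± 14.1 and 19.0 ± 1.87 FPKM with busulfan alone. Their differences were -0.84 (limma adjusted p = 0.0568) and -0.50 (limma adjusted p = 0.0665), opposite in sign to that of Fancm, and both are short (873 and 1110 bases). H2afx, the histone marked at breaks, had 73.0 ± 1.75 against 111 ± 19.8 FPKM in the same comparison (limma adjusted p = 0.0715). For busulfan against control the genes with an unadjusted p under 0.05 included the phosphatase Cdc25a (0.45, limma adjusted p = 0.313) and the kinase Wee1 (0.33, limma adjusted p = 0.386), both cell cycle linked. For L.J. against control they belonged to the exonuclease Exo1 (0.52) and the helicase Ercc2 (0.44), each with a limma adjusted p of 0.548. Cdkn1a, the p53 target that arrests the cell cycle, averaged 22.2 ± 2.04 FPKM with busulfan against 15.0 ± 2.66 FPKM in controls, a difference of 0.54 (limma adjusted p = 0.259). Of 15 tested p53 targets, 10 were higher and 5 lower in that comparison, with differences from -0.37 to 0.54. None of the 15 passed by limma, and 3 (20%) had an unadjusted p under 0.05, against 12.2% of all genes.

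Within groups, part of these genes followed the level of cycling genes from library to library. A cycling score, the mean log2(FPKM + 1) of 45 genes of S phase and mitosis, none of them among the 33, was 4.95, 5.36 and 4.96 with busulfan and L.J., 4.98, 5.32 and 5.01 with busulfan alone, 4.97, 5.14 and 5.17 with L.J. alone and 5.02, 5.23 and 4.60 in controls. The groups overlapped, and control library 3 was the lowest. Of the 45 genes, 39 were higher with busulfan than in controls, beside 44.6% of all genes. Their median difference was 0.16 beside -0.03, and it was not recomputed without control library 3. By limma 0 of the 45 passed the test, and 3 had an unadjusted p under 0.05, against 12.2% of all genes. Mki67 differed by -0.15 (limma adjusted p = 0.860) and Top2a by 0.19 (limma adjusted p = 0.680) between busulfan and control. The slope of each gene on the score, with the group means held, was fitted to all 13138 genes in limma. This relation was looked for after the data were seen, and a gene's value and the score come from the same library, with its depth and composition.

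Brca1 had 7.98, 9.93 and 7.50 FPKM in spleens given busulfan with L.J., 6.86, 9.65 and 6.84 with busulfan alone, 7.32, 9.21 and 8.54 with L.J. alone and 8.45, 8.99 and 5.95 in controls. The lowest of the 12 was control library 3 and the highest busulfan with L.J. library 2, the libraries with the lowest and the highest cycling score. Brca1, the recombination gene first known from breast cancer families (gene 12189, chr11:101488761-101551955, minus strand), was the only one of the 33 to pass, with a slope of 0.95 log2 units per unit of score (SE 0.17, limma adjusted p = 0.0436), where 0.556% of all genes passed. Leaving out control library 3 gave 0.98 (adjusted p = 0.281), and in 10 of the 12 fits that leave out 1 library the adjusted p of Brca1 was over 0.05. Over those 12 fits it ranged from 0.0212 to 0.281. Brca1 was highest in library 2 of all 4 groups, and the cycling score was highest in library 2 of 3 of the 4. With the replicate number as a block the slope of Brca1 was 0.78 (limma adjusted p = 0.901), so that the call was lost, and 4 of the 33 genes, in place of 10, had an unadjusted p under 0.05. Blm followed with 1.07 (limma adjusted p = 0.0576), then Fanci with 0.84 (limma adjusted p = 0.0676), Fancd2 with 1.05 (limma adjusted p = 0.132), Chek2 with 1.05 (limma adjusted p = 0.139) and Chek1 with 0.89 (limma adjusted p = 0.141).

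Slopes were above 0 for 23 of the 33 genes, beside 36.8% of all genes, and their median was 0.32 beside -0.12. An unadjusted p under 0.05 with a slope above 0 was reached by 10 of the 33, against 6.45% of all genes, and with a slope below 0 by 0, against 6.91%. The 10 were the 6 named and Brca2, Brip1, Rad51c and Palb2, so they comprise 5 of the 7 recombination genes, Blm, the ubiquitinated pair and the checkpoint kinases Chek1 and Chek2. None of the 8 core complex genes and none of the 5 nuclease genes was among them. The core complex gene Fancl (0.53) and the nuclease gene Eme1 (0.46) nevertheless had larger slopes than Palb2 (0.44), which was. A difference between roles was not tested. Slx4 had a slope of -0.16, Rev3l of -0.002, Fancf of 0.005, Fancc of 0.37, Fanca of 0.26, Ercc1 of -0.55 and Mus81 of -0.74. Of the 9 among the 10 with a promoter in the table, 3 held the E2F type motif and 5 a CCAAT box, against 4 and 13 of the other 21.

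**Figure D4:**
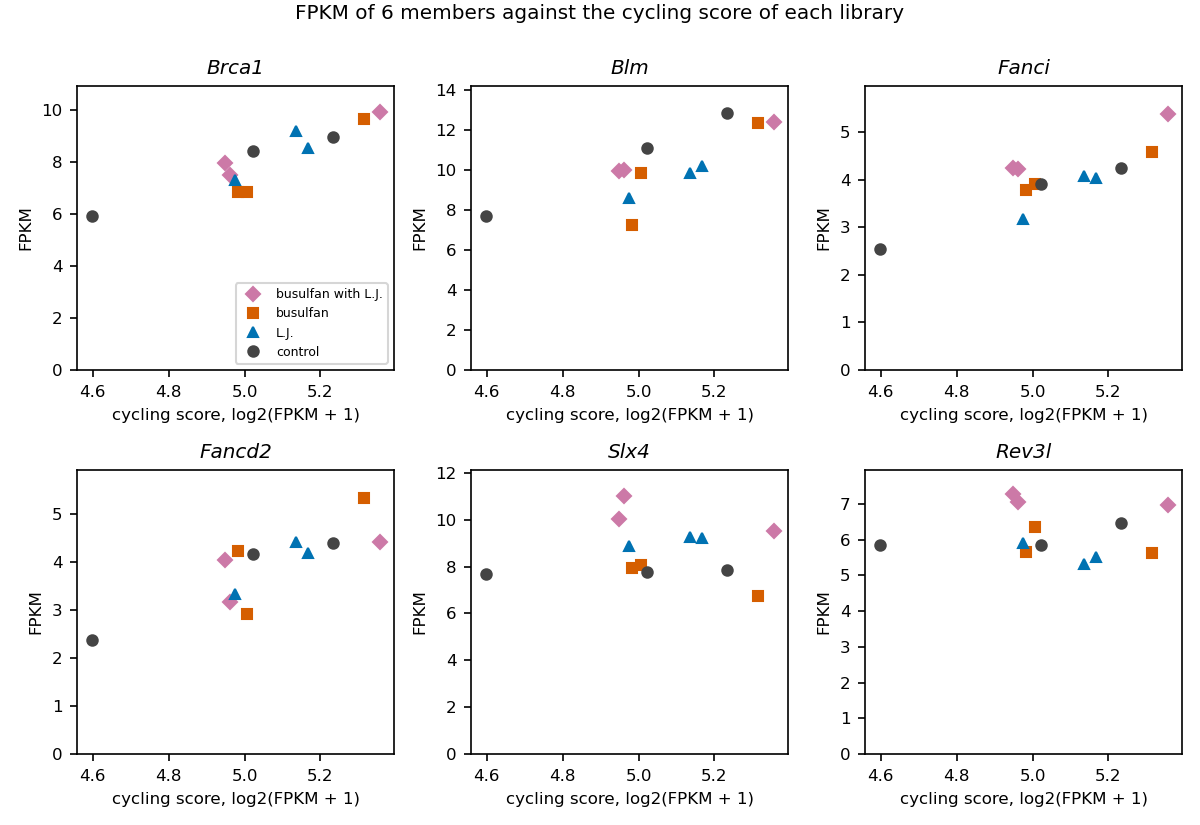
FPKM of 6 genes against the cycling score, the mean log2(FPKM + 1) of 45 cycling genes, with 1 point per library and colours for the 4 groups. Brca1, Blm, Fanci and Fancd2 are lowest in control library 3, except Blm, which is lower in 1 busulfan library, and are higher where the score is higher; Slx4 and Rev3l show no such order.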

How the data were processed

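RNA of 12 mouse spleen libraries, 3 in each of 4 groups taken from the labels, was analysed from 1 table of gene FPKM values that the authors deposited with 2 decimals. Bowtie 0.12.2 and mm10 stand in the submitters' processing notes, with no role attached. Counter, annotation, strand setting and filters were not stated, and depth is unknown. Summed deposited FPKM ran between 511876 and 580364 over libraries, with 12249 to 13129 genes at 1 FPKM or more, and abundant transcripts in 1 library lower the others there.

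Values were taken as log2(FPKM + 1). The filter kept genes whose mean reached 1 FPKM in any group (13138 of 21004). Group means were modelled together with limma 3.58.1 in R 4.3.3 (trend, robust empirical Bayes, 95% intervals), p-values were adjusted by Benjamini-Hochberg over all genes kept, and the threshold was 0.05. Scripts were tested on simulated data. With 3 libraries against 3, an exact permutation test of 1 gene cannot go below 0.1 and was not used. The genes and all lists were chosen with earlier results of these data known. Genes shown in every library are, per comparison, the 5 with the smallest p, and in other lists the 3 with the smallest p, of which 1 is not reported here; Fanci, Fancd2 and Brca1 were added after their values were seen, as were the slopes on the cycling score. Coordinates are RefSeq's on GRCm38, promoters RefSeq's, and transcript lengths and overlaps GENCODE M21's. Python 3.11.15 with numpy 2.4.6, pandas 2.3.3 and matplotlib 3.10.9 made the tables and plots. Libraries correlated at 0.915 to 0.986 within groups, and none were identical.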

Additional observations from a re-analysis of the deposited data

Results flagged for a closer look

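Atm had differences of opposite sign for L.J. with and without busulfan, neither of which passed the test. All 3 libraries given busulfan with L.J. (6.33 to 6.90 FPKM) lay above all 3 with busulfan alone (4.63 to 6.17 FPKM), and all 3 with L.J. alone (5.79 to 5.95 FPKM) lay below all 3 controls (6.0 to 6.46 FPKM). The effect of L.J. with busulfan less its effect without was 0.367 on the log2(FPKM + 1) scale, with an unadjusted p of 0.0289 and an adjusted p of 0.364 in limma, so it did not pass either. For L.J. alone against control the difference was -0.07 (95% interval -0.30 to 0.16). For busulfan with L.J. against busulfan it was 0.30, and 0.08 without the 3 libraries richest in acinar transcripts, where the term above was 0.154. That fit leaves busulfan library 3 alone in its group. Groups of 3 libraries were not tested for single outlying samples.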

How the results depend on the processing

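Alternatives changed the scaling (quantile, median of ratios), the fit (library weights, robust option off, a fit on only the groups compared), the filter (none, or 5 FPKM), the pseudocount (0.1 or 5), the covariates (acinar score, cycling score, replicate block) and the libraries (each in turn, or those over 1% acinar, left out) and, added after the data were seen, the 3 libraries with the highest acinar score left out. Of the log2 differences recomputed for named genes, 753 kept direction and side of the threshold, 11 passed it anew and 1 reversed (Mus81, busulfan against control, -0.0623 with library weights). No gene passed in busulfan against control, L.J. against control, both agents against L.J. alone or the interaction under any of them, and a pseudocount of 5 shrinks differences by its construction. In busulfan with L.J. against busulfan, 5 of the 33 passed with library weights, among them Slx4 (adjusted p = 0.0112), Fancg (0.0324), Atm (0.0342) and Ercc4 (0.0454), and 0 to 2 when 1 library was left out: Slx4 without busulfan library 1 (0.0455), and Slx4 (0.0255) and Atm (0.0214) without busulfan library 3. In both agents against control, 4 passed with library weights and 1 with only the groups compared (Mus81, 0.0345). The cause was not tested.

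The replicate numbers do not pair the libraries by the labels or as a whole: deviations from group means correlated between -0.307 and 0.326 over 18 pairs with the same number and between -0.401 and 0.372 over 36 with different numbers, although 5 of the 6 pairs numbered 2 were above 0. With the replicate block, 0 of the 33 genes passed in each of the 6 comparisons and 0 slopes on the cycling score passed; over all genes, 55 passed for busulfan with L.J. against busulfan with the block and 218 without it. The number of slopes past the threshold, 1 as reported, was 0 without the filter, 2 with the filter at 5 FPKM, 4 with quantile scaling, 3 with median of ratios scaling, 3 without libraries over 1% acinar, and 0 to 3 when 1 library was left out. The number with an unadjusted p under 0.05 ranged over 0 to 5 for busulfan against control, 2 to 9 for busulfan with L.J. against busulfan and 3 to 13 for both agents against control. With 3 libraries a group and unknown depth, differences under about 0.5 log2 units were not resolved for many of these genes.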
